A study of Mus musculus with 11 samples.

Results

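The ADAM and ADAMTS family was examined in RNA-sequencing counts of the MamBo lines, mouse mammary carcinoma cells that carry a human HER2 transgene. The members were all genes of the table whose symbol is Adam, Adamts or Adamtsl followed by a number, which gave 58 of 21846 genes: 34 ADAM, 19 ADAMTS and 5 ADAMTS-like genes. RNA of cultured cells had been sequenced in 11 libraries. All lines came from mammary tumors of FVBhuHER2 virgin females. MamBo89 (HER2 stable, tumor A) had 4 libraries, namely an untreated one labelled AG3, a further untreated one, one kept in trastuzumab for 60 days and one given trastuzumab for 30 days followed by 30 days without it. MamBo43 (HER2 labile, tumor B) had 1 untreated library, which is HER2-positive, and a library under each schedule. The methods describe the latter pair (MamBo43 TRT) as having lost HER2. The paper also reports that a few HER2-positive cells could always be found in MamBo43 cultures kept in trastuzumab. MamBo38 (HER2 loss), a line from a tumor that MamBo43 cells formed in mice, had 2 untreated libraries and 1 under each schedule, all HER2-negative. Trastuzumab, an antibody against human HER2, was used at 30 µg/ml. The HER2-negative group thus has 6 libraries and the HER2-positive group 5, the age of the mice was not given in the sources used here, and expression of the human transgene was not analysed here. The methods name a MamBo89 clone among the HER2-positive cells without saying which library it is.

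ADAM proteins are membrane-anchored and carry a disintegrin and a metalloprotease domain, and those with an active enzyme cut other membrane proteins close to the cell surface, a step called shedding. ADAM10 and ADAM17 release the ligands of the ErbB receptors and can cut receptors, HER2 among them. ADAMTS proteins are secreted, carry thrombospondin repeats and act on the extracellular matrix, where some cut the large proteoglycans versican and aggrecan and others remove the amino-terminal propeptide of fibrillar collagens, while ADAMTS-like proteins have the repeats but no protease domain. In mammary carcinoma the family is studied for growth factor release, matrix turnover and invasion.

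Libraries held 17040454 to 27127662 counts, so that 3 counts, the highest number that a count of 0 allows, correspond to 0.114 to 0.179 CPM. CPM are counts per 1e+06 of the TMM-scaled library size, and values of a line are given in the order untreated, untreated, 30 days with and 30 days without trastuzumab, 60 days with trastuzumab. The name of the first untreated MamBo38 library carries the code that both treated MamBo38 libraries carry, and the second carries the code of all other lines. What the codes stand for is not given in the labels. The first untreated MamBo89 library is AG3. It was the lowest of the 4 MamBo89 libraries for 16 of the 24 expressed members and the highest for 3. Of the 4 MamBo38 libraries, the second untreated one was the lowest for 11 of these members and the highest for 7. The summed level of 8 luminal and general epithelial markers was 2534 to 3927 CPM in MamBo89, 3615 CPM in untreated MamBo43, 300.8 to 1843 CPM in MamBo43 TRT and 1.39 to 2.73 CPM in MamBo38, so that MamBo38 lacks the markers that define mammary epithelium. That of 7 mesenchymal markers was 76.0 to 155 CPM in MamBo89, 359.9 CPM in untreated MamBo43, 7479 to 7997 CPM in MamBo43 TRT and 6288 to 7303 CPM in MamBo38. The 3 basal epithelial markers summed to 44.3 to 156 CPM in MamBo43 TRT, 9.32 to 35.5 CPM in the HER2-positive libraries and at most 1.01 CPM in MamBo38, and endothelial and adipocyte markers to at most 2.69 CPM in any library. Immune markers summed to 1.14 to 49.9 CPM, with 4 of 6 genes at or under 3 counts in every HER2-negative library and 5 of 6 in every HER2-positive one, the pan-leukocyte gene Ptprc among them. The part of these differences in the results on the family was not tested.

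Most of the family was silent or nearly so. No count was found in any library for 17 members, namely Adam28, Adamts19 and 15 of the 22 ADAM genes known from testis and epididymis (Adam2, Adam3, Adam6a, Adam6b, Adam7, Adam18, Adam20, Adam24, Adam25, Adam26a, Adam26b, Adam29, Adam34, Adam34l and Adam39). Another 9 members had at most 10 counts in any library and were left out of all fits on the 4 states, namely Adam1b, Adam5, Adam23, Adam32, Adamts13, Adamts16, Adamts18, Adamts20 and Adamtsl1. Of the rest, 24 passed the filter on low counts (a minimum count of 10, by edgeR's filterByExpr) in the comparison of HER2-negative with HER2-positive libraries and are called expressed here. In the fit of the 4 states, 32 members passed, the additional 8 being Adam4, Adam21, Adam22, Adam30, Adam33, Adamts3, Adamts8 and Adamtsl2.

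**Figure D1:**
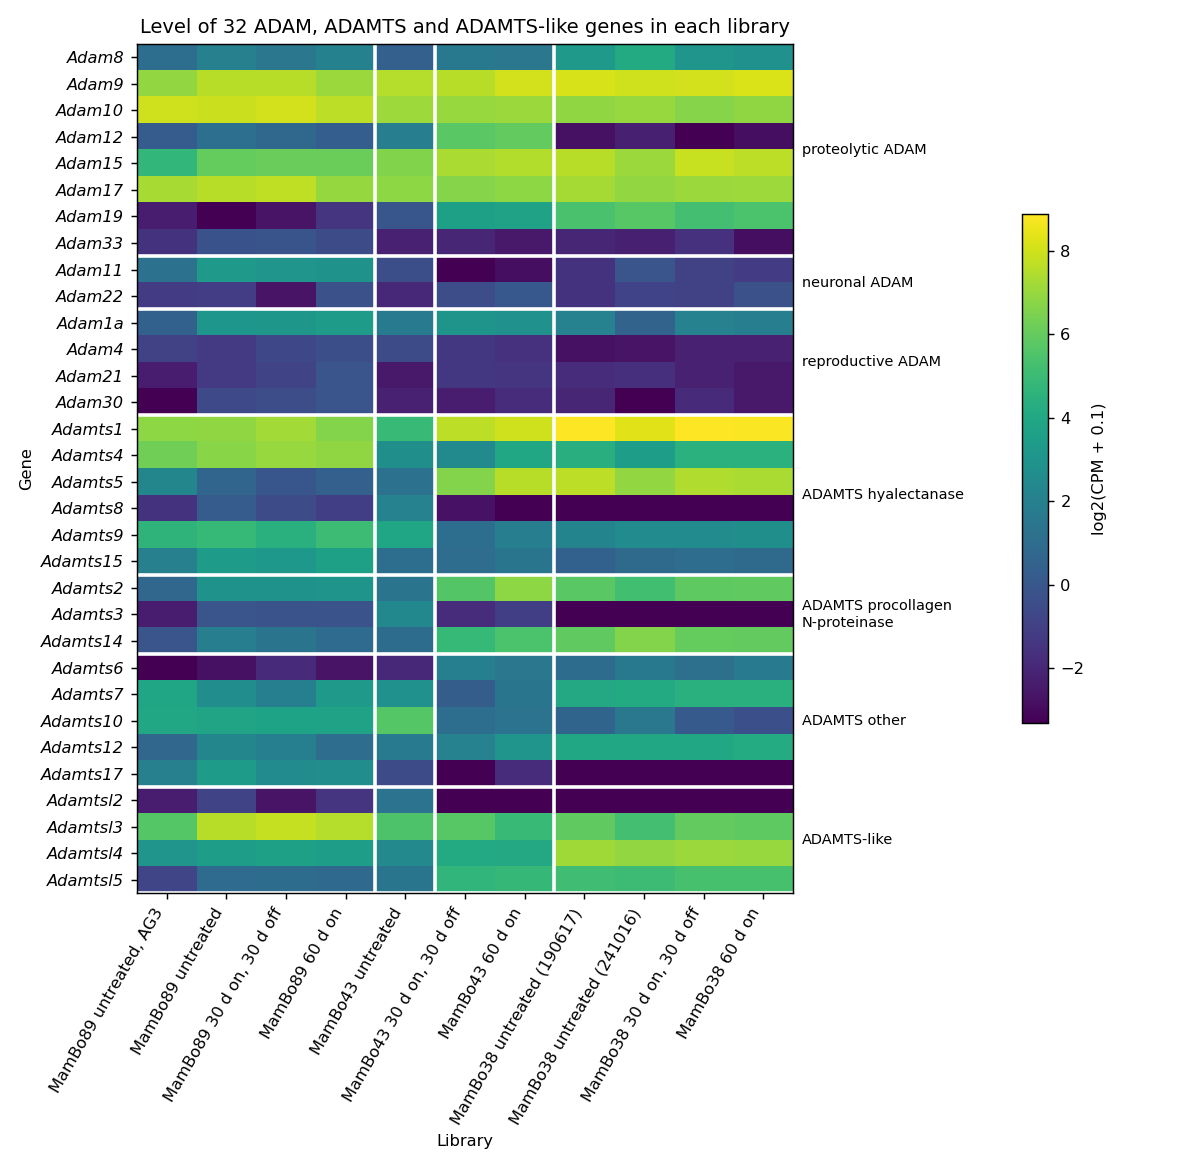
Level of the 32 members tested in the fit of 4 states (rows, by role) in each of the 11 libraries (columns, by line), as log2(CPM + 0.1), in a colour scale from dark (low) to yellow (high). Adam9, Adam10, Adam15, Adam17 and Adamts1 are bright in all or most columns, whereas Adam19, Adamts5, Adamts2 and Adamts14 are bright only to the right, in the HER2-negative libraries.

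Per exon length, as TPM (transcripts in 1e+06) computed from the counts, the order of the members differed between the states. In MamBo38 the highest were Adamts1 (mean of 272 TPM) and Adam9 (225), followed by Adamtsl4 (105) and Adam15 (104). In MamBo43 TRT Adam9 (189.6) and Adamts1 (148) led. In untreated MamBo43 they were Adam9 (148) and Adam10 (94.0), and in MamBo89 Adam10 (176) and Adam9 (137). The 9 sheddases and other proteolytic ADAM genes summed to 481 to 524 TPM in MamBo38, 423 to 487 in MamBo43 TRT, 350.0 in untreated MamBo43 and 360.2 to 496 in MamBo89, so that their ranges overlapped between HER2-negative and HER2-positive libraries. The 3 procollagen N-proteinases summed to 37.5 to 80.8 in the HER2-negative and 1.41 to 5.56 in the HER2-positive libraries, with no overlap.

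The comparison of 6 HER2-negative with 5 HER2-positive libraries asks which genes differ with HER2 status. Of the 24 expressed members, 18 were called, that is passed an edgeR adjusted p of 0.1 with a change of 2-fold or more, against 32.8% of the 12364 genes tested. Changes are given in parentheses as log2 fold changes ± 1 standard error. The called members were split, with 11 higher (15.8% of all genes) and 7 lower (17.0%) in HER2-negative libraries. The median log2 fold change was 1.10 over the 24 members and -0.04 over all genes. In 13 members both groups of libraries did not overlap, as in 34.9% of all genes. In 9 of them every HER2-negative library lay above every HER2-positive one (17.7% of all genes), and in 4 below (17.2%). Libraries are bulk RNA, in which fewer cells of a type and less RNA per cell cannot be told apart. All HER2-negative libraries stem from tumor B and 4 of the 5 HER2-positive ones from tumor A. With the tumor of origin as a covariate, 12 members were called, 9 higher and 3 lower, against 26.5% of all genes (13.4% higher, 13.1% lower), and the contrast then rests on the single untreated MamBo43 library. Adam11, Adam15, Adamts12 and Adamts15 were then no longer called, and Adamts4 and Adamtsl3 turned their sign.

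**Figure D2:**
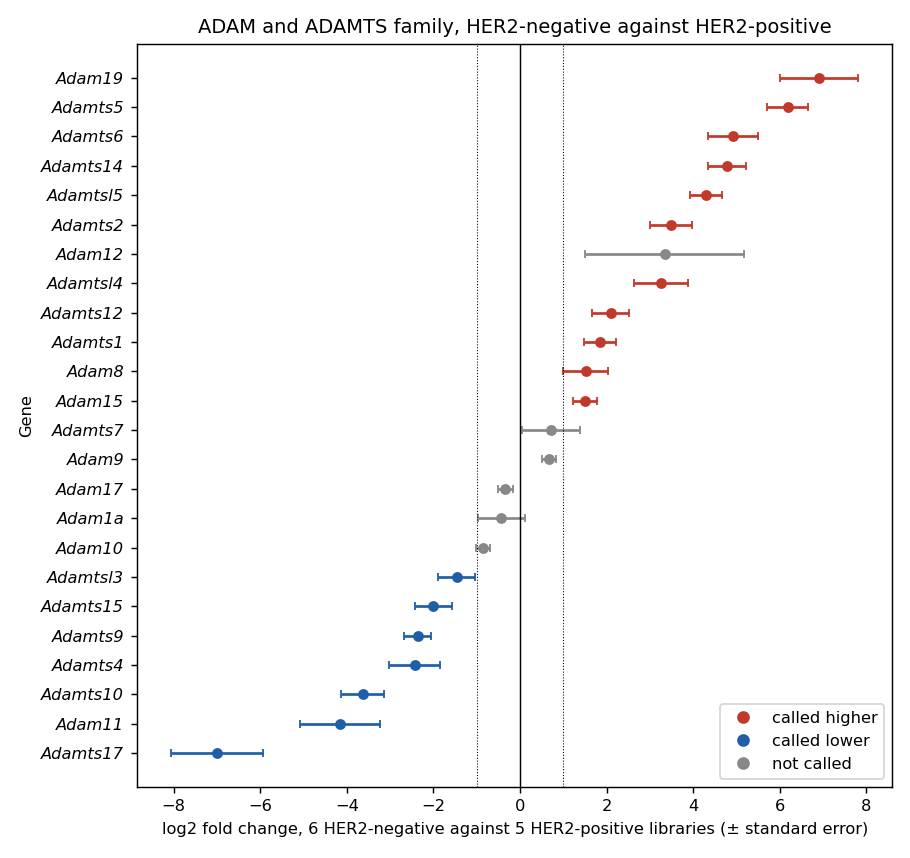
Log2 fold change (horizontal axis) of the 24 expressed members (rows) between 6 HER2-negative and 5 HER2-positive libraries, with bars of 1 standard error and dotted lines at the minimum of 1 in either direction. Adam19 (6.91) and Adamts5 (6.19) lie furthest to the right, Adamts17 (-6.99) furthest to the left, and Adam12 has the longest bar (standard error 1.83).

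Of the 7 expressed proteolytic ADAM genes, 3 were higher in HER2-negative libraries, none was lower and 4 were not called. Adam19, a sheddase of neuregulins known from the developing heart and neural crest, had 41.7, 52.7, 37.8 and 42.3 CPM in MamBo38, 12.3 and 12.8 CPM in MamBo43 TRT, 0.861 CPM in untreated MamBo43, and 0.0974, 0, 0.0583 and 0.272 CPM in MamBo89. It was at or near 0 in MamBo89 and higher in every HER2-negative library (6.91 ± 0.90, edgeR adjusted p = 1.04e-04). The gene lies on chromosome 11, 46055992 to 46147343 of GRCm38, and antisense genes hold 7.07% of its 75-base windows, which a kit that keeps no strand does not separate. Adam15, which carries an integrin-binding motif, had 191, 135, 229 and 206 CPM in MamBo38, 162 and 179 CPM in MamBo43 TRT, 95.3 CPM in untreated MamBo43, and 27.1, 63, 67.6 and 70.0 CPM in MamBo89 (1.5 ± 0.27, edgeR adjusted p = 8.44e-04). Its lowest HER2-negative library lay above untreated MamBo43, and 12.5% of its windows are shared with other genes, namely an antisense gene and Ipo7. Adam8, better known from leukocytes, had 9.51, 17.5, 8.05 and 7.17 CPM in MamBo38, 2.99 and 2.72 CPM in MamBo43 TRT, 1.25 CPM in untreated MamBo43, and 2, 3.82, 2.8 and 4.03 CPM in MamBo89 (1.52 ± 0.51, edgeR adjusted p = 0.0280). Its levels were high in MamBo38, while MamBo43 TRT lay within the range of MamBo89. The immune marker sum was 27.2 to 49.9 CPM in MamBo38 against 3.72 to 4.60 CPM in MamBo43 TRT and 7.01 to 16.7 CPM in MamBo89, and its part in the Adam8 result was not tested.

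Adam10 and Adam17, the principal sheddases of ErbB ligands, were well expressed in every library. Adam10 had 115, 129.5, 102 and 117 CPM in MamBo38, 129.8 and 132 CPM in MamBo43 TRT, 138 CPM in untreated MamBo43, and 253, 236, 262 and 204 CPM in MamBo89. Every HER2-negative library lay below every HER2-positive one, but the difference stayed under the minimum fold (-0.86 ± 0.16, edgeR adjusted p = 9.87e-04). Adam10 was called lower between MamBo38 and MamBo89 (-1.04 ± 0.11, edgeR adjusted p = 1.93e-05), whereas MamBo43 TRT and untreated MamBo43 were close to each other (-0.08 ± 0.19, edgeR adjusted p = 0.801). Adam17 had 149.7, 120.5, 133 and 139 CPM in MamBo38, 103 and 112 CPM in MamBo43 TRT, 114 CPM in untreated MamBo43, and 156, 189.7, 213 and 122 CPM in MamBo89. Its HER2-negative and HER2-positive libraries overlapped (-0.34 ± 0.18, edgeR adjusted p = 0.125), and it was not called in any of the comparisons. Adam9, a widely expressed sheddase, had 281, 258, 267 and 291 CPM in MamBo38, 192 and 263 CPM in MamBo43 TRT, 181 CPM in untreated MamBo43, and 119, 189.9, 192 and 133 CPM in MamBo89, and its difference was likewise under the minimum fold (0.66 ± 0.16, edgeR adjusted p = 0.00542). Adam33, known from airway smooth muscle, had 0.144, 0.111, 0.239 and 0.038 CPM in MamBo38, 0.147 and 0.0767 CPM in MamBo43 TRT, 0.117 CPM in untreated MamBo43, and 0.243, 0.737, 0.816 and 0.598 CPM in MamBo89, and was called lower in MamBo38 than in MamBo89 from few counts (-2.18 ± 0.61, edgeR adjusted p = 0.00907).

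Adam12, a sheddase associated with myofibroblasts and with invasive carcinoma, separated the HER2-negative cells from each other. It had 0.048, 0.111, 0 and 0.038 CPM in MamBo38, 54.8 and 61.8 CPM in MamBo43 TRT, 3.6 CPM in untreated MamBo43, and 1.07, 2.07, 1.63 and 1.14 CPM in MamBo89. Over 6 against 5 libraries it was not called (3.34 ± 1.83, edgeR adjusted p = 0.146), and MamBo38 lay below all HER2-positive libraries while MamBo43 TRT lay above them. In MamBo38 it was lower than in MamBo89 (-4.76 ± 0.46, edgeR adjusted p = 8.11e-06), in MamBo43 TRT it was higher than in untreated MamBo43 (4.01 ± 0.55, edgeR adjusted p = 6.44e-04), and in MamBo43 TRT it was higher than in MamBo38 (10.05 ± 0.45, edgeR adjusted p = 1.11e-06). The gene lies on chromosome 7, 133883199 to 134232146, on the minus strand.

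**Figure D3:**
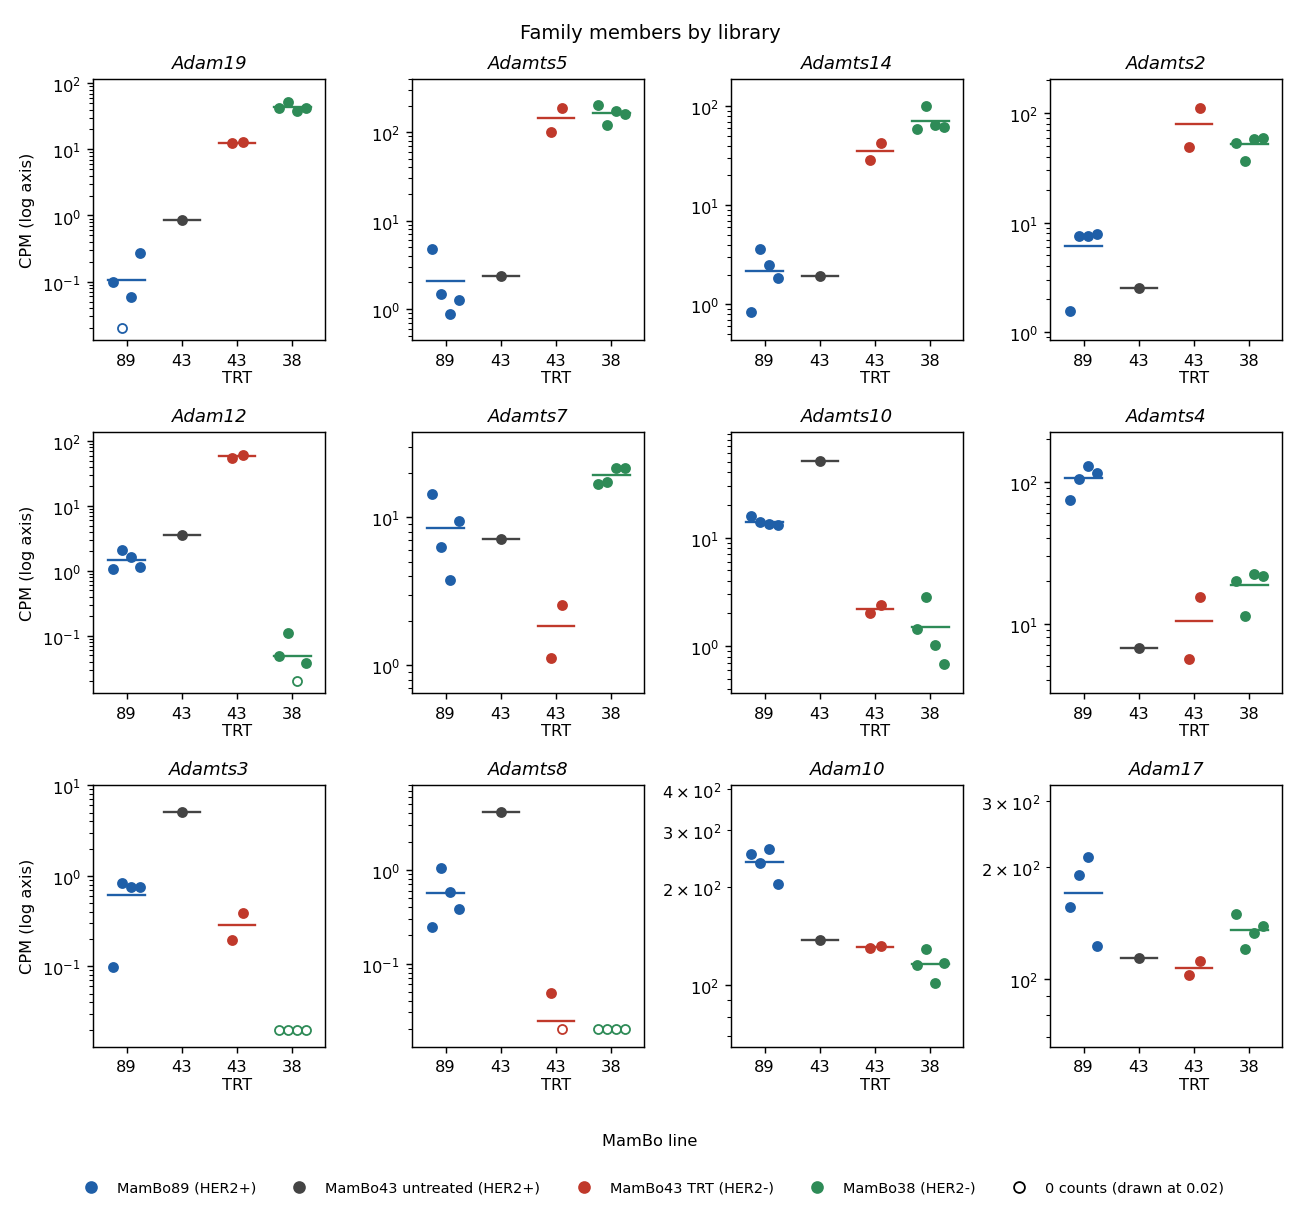
CPM on a log axis (vertical) of 12 members in each library, by line (horizontal), with a horizontal bar at the mean of each state and open circles for libraries with 0 counts, drawn at 0.02. Adam19, Adamts5, Adamts14 and Adamts2 are high in MamBo43 TRT and MamBo38, Adam12 is high in MamBo43 TRT alone, Adamts10, Adamts3 and Adamts8 are highest in untreated MamBo43, and Adam10 (102 to 262 CPM) and Adam17 (103 to 213 CPM) vary least. The axes differ between panels.

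All 5 expressed hyalectanases, ADAMTS enzymes that cut versican and aggrecan, were called, 2 higher and 3 lower in HER2-negative libraries. Adamts5, the main aggrecanase of mouse cartilage, had 204, 119, 172 and 161 CPM in MamBo38, 99.3 and 188 CPM in MamBo43 TRT, 2.35 CPM in untreated MamBo43, and 4.72, 1.47, 0.874 and 1.25 CPM in MamBo89. Both groups were far apart, with no overlap (6.19 ± 0.47, edgeR adjusted p = 4.42e-06). Adamts1, which also binds VEGF, had 461, 321, 473 and 458 CPM in MamBo38, 204 and 252 CPM in MamBo43 TRT, 29.8 CPM in untreated MamBo43, and 112, 116, 145 and 97.1 CPM in MamBo89. Untreated MamBo43 was the lowest library and MamBo89 lay between it and MamBo43 TRT (1.85 ± 0.38, edgeR adjusted p = 0.00180). Adamts1 and Adamts5 are neighbours on the minus strand of chromosome 16 (85793827 to 85803113 and 85856173 to 85901828), 53059 bases apart with no protein-coding gene between them.

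Adamts4, an aggrecanase induced by inflammatory cytokines, went the other way. It had 20.1, 11.2, 22.3 and 21.8 CPM in MamBo38, 5.63 and 15.3 CPM in MamBo43 TRT, 6.73 CPM in untreated MamBo43, and 75, 104, 129 and 115 CPM in MamBo89. It was high in MamBo89 and low elsewhere (-2.43 ± 0.59, edgeR adjusted p = 0.00516), and untreated MamBo43, although HER2-positive, lay among the HER2-negative libraries. Adamts4 turned to a log2 fold change of 1.25 once the tumor of origin entered the fit. Adamts9, which cuts versican and has a role in ciliogenesis, had 4.47, 5.9, 5.85 and 6.72 CPM in MamBo38, 2.06 and 3.64 CPM in MamBo43 TRT, 14.2 CPM in untreated MamBo43, and 24.3, 29.3, 21.2 and 33.3 CPM in MamBo89, lower in every HER2-negative library (-2.37 ± 0.32, edgeR adjusted p = 1.29e-04). Genes on the opposite strand hold 9.71% of its 75-base windows. Adamts15 had 1.3, 1.78, 1.97 and 1.75 CPM in MamBo38, 1.96 and 2.57 CPM in MamBo43 TRT, 2.03 CPM in untreated MamBo43, and 3.85, 10.7, 8.97 and 12.2 CPM in MamBo89 (-2.0 ± 0.43, edgeR adjusted p = 0.00246). For Adamts15 untreated MamBo43 lay within the range of the HER2-negative libraries. Adamts8, an anti-angiogenic member, did not pass the filter in the comparison by HER2 status and had 0 counts in the 4 MamBo38 libraries, 0.049 and 0 CPM in MamBo43 TRT, 4.11 CPM in untreated MamBo43, and 0.243, 1.06, 0.583 and 0.381 CPM in MamBo89. Untreated MamBo43 was thus the highest, at least 112-fold above MamBo38 when 3 counts are set for the latter, and its ratio to MamBo43 TRT was 191 (95% counting interval 33.5 to 7613, with 105 counts against 1). Adamts8 was called lower in MamBo38 than in MamBo89, at least 15.8-fold, and in MamBo43 TRT than in untreated MamBo43 (edgeR adjusted p = 0.00154 and 0.00521). An antisense gene holds 7.5% of its windows.

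The procollagen N-proteinases, which remove the amino-terminal propeptide of fibrillar collagens before fibrils form, did not move as one. Adamts2, the enzyme for collagens I to III whose loss makes skin fragile, had 53.5, 36.5, 58.8 and 58.9 CPM in MamBo38, 48.8 and 112 CPM in MamBo43 TRT, 2.5 CPM in untreated MamBo43, and 1.56, 7.6, 7.46 and 7.94 CPM in MamBo89 (3.49 ± 0.48, edgeR adjusted p = 1.49e-04). Adamts14, its close relative, had 59.4, 99.6, 64.8 and 61.6 CPM in MamBo38, 28.5 and 42.3 CPM in MamBo43 TRT, 1.92 CPM in untreated MamBo43, and 0.828, 3.59, 2.51 and 1.85 CPM in MamBo89 (4.78 ± 0.44, edgeR adjusted p = 1.16e-05). Both were higher in all HER2-negative libraries, with the 60-day MamBo43 TRT library highest for Adamts2 and the second untreated MamBo38 library highest for Adamts14. Adamts3, which activates the lymphangiogenic factor VEGF-C with CCBE1, had 0 counts in the 4 MamBo38 libraries, 0.196 and 0.384 CPM in MamBo43 TRT, 5.09 CPM in untreated MamBo43, and 0.0974, 0.829, 0.757 and 0.762 CPM in MamBo89. It was highest in untreated MamBo43, at least 139-fold above MamBo38, and was called lower in MamBo38 than in MamBo89, at least 16.5-fold (edgeR adjusted p = 0.00186), and in MamBo43 TRT than in untreated MamBo43 (-4.09 ± 1.02, edgeR adjusted p = 0.0210).

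The promoters of these 3 enzymes, and of Adam19 as the member with the largest rise by HER2 status, are shown because members of the trio moved in opposite directions while their sequences near the start of the gene were alike in base composition. The windows run from 250 bases before to 50 after the start of a transcript (RefSeq, GRCm38.p6) and are printed 5′ to 3′ on the strand of the gene, with capitals for the motifs searched on both strands, namely the GC box GGGCGG, the AP-1 site TGACTCA, the E-box CACCTG and the TATA box TATAAA. They are chr11:50601835-50602134 (plus strand) for Adamts2, chr10:61273370-61273669 (minus) for Adamts14, chr5:89883285-89883584 (minus) for Adamts3 and chr11:46055734-46056033 (plus), 1 of 3 windows of the gene, for Adam19.
Adamts2: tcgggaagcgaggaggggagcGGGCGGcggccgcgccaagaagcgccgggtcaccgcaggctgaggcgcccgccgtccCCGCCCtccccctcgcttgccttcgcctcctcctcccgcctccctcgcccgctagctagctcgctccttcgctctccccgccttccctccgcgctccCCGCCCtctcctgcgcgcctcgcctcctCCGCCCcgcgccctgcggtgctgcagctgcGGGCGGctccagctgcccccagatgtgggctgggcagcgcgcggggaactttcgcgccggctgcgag
Adamts14: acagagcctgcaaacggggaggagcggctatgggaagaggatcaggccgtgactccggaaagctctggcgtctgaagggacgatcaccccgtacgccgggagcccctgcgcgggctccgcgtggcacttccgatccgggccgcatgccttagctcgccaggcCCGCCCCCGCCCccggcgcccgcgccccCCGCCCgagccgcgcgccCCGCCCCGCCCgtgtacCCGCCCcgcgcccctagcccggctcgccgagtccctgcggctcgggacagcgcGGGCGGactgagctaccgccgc
Adamts3: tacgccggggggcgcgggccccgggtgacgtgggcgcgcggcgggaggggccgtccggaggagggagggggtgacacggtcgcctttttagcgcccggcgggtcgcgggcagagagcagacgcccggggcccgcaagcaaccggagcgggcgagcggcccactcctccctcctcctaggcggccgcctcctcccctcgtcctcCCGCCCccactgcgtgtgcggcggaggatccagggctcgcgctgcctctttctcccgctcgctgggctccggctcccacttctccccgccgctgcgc
Adam19: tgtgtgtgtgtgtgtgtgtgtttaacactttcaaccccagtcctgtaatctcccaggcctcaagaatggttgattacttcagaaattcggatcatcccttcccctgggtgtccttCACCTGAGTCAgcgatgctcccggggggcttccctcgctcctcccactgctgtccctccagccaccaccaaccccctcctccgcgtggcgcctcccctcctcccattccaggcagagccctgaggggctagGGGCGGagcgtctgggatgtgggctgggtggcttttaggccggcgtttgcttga
The GC content was 77.3% for Adamts2, 76.7% for Adamts14, 77.3% for Adamts3 and 60.3% for Adam19. The GC box occurred 5 times in Adamts2, 7 times in Adamts14 and once in Adamts3 and in this window of Adam19, in which an E-box and an AP-1 site overlap. Over the 34 windows matched to 32 members, the GC box was found in 50.0%, against 35.7% of all 32851 windows, and the AP-1 site in 8.82% against 5.20%. For the E-box the shares were 17.6% and 20.2%, and for the TATA box 17.6% and 13.6%. The median GC content was 61.1% in the windows of members and 52.7% in all windows. These are matches of letters, and binding was not measured.

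Among the other ADAMTS genes, 2 were higher, 2 were lower and 1 was not called in HER2-negative libraries. Adamts6, which acts on microfibrils with Adamts10, had 1.87, 3, 2.15 and 3.19 CPM in MamBo38, 3.72 and 2.8 CPM in MamBo43 TRT, 0.157 CPM in untreated MamBo43, and 0, 0.046, 0.175 and 0.0544 CPM in MamBo89, with 9 counts in all HER2-positive libraries together (4.91 ± 0.58, edgeR adjusted p = 5.51e-05). Adamts10, the gene of Weill-Marchesani syndrome, had 1.44, 2.84, 1.01 and 0.683 CPM in MamBo38, 2.01 and 2.38 CPM in MamBo43 TRT, 50.5 CPM in untreated MamBo43, and 15.7, 14, 13.3 and 13.1 CPM in MamBo89. Adamts10 was thus highest in untreated MamBo43 and lower in every HER2-negative than in every HER2-positive library (-3.63 ± 0.50, edgeR adjusted p = 1.46e-04), opposite to Adamts6. Adamts17, also linked to a Weill-Marchesani-like syndrome, had 0 counts in the 4 MamBo38 libraries, 0 and 0.192 CPM in MamBo43 TRT, 0.626 CPM in untreated MamBo43, and 3.94, 10.5, 5.88 and 6.15 CPM in MamBo89. It was expressed in MamBo89 and had 5 counts in all HER2-negative libraries together (-6.99 ± 1.06, edgeR adjusted p = 2.75e-04), and MamBo89 was at least 183-fold above MamBo38. Adamts12, which cuts cartilage oligomeric matrix protein, had 16.1, 15.9, 15.7 and 18.1 CPM in MamBo38, 4.21 and 8.13 CPM in MamBo43 TRT, 3.09 CPM in untreated MamBo43, and 1.56, 4.7, 3.79 and 1.96 CPM in MamBo89 (2.10 ± 0.43, edgeR adjusted p = 0.00181). For Adamts12 MamBo43 TRT lay between MamBo38 and the HER2-positive libraries, with an overlap. Adamts7, which cuts the same substrate, had 16.7, 17.3, 21.7 and 21.5 CPM in MamBo38, 1.13 and 2.57 CPM in MamBo43 TRT, 7.12 CPM in untreated MamBo43, and 14.4, 6.26, 3.79 and 9.41 CPM in MamBo89. It was not called by HER2 status (0.71 ± 0.67, edgeR adjusted p = 0.397), and MamBo38 was the highest state and MamBo43 TRT the lowest.

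The ADAMTS-like genes, which bind microfibrils but lack a protease domain, had 2 members higher and 1 lower. Adamtsl4, linked to displacement of the eye lens, had 141, 121, 134 and 128 CPM in MamBo38, 17.6 and 16.3 CPM in MamBo43 TRT, 5.32 CPM in untreated MamBo43, and 8.28, 11.1, 12.2 and 11.2 CPM in MamBo89 (3.26 ± 0.62, edgeR adjusted p = 0.00123). MamBo38 stood apart, and MamBo43 TRT was only a little above MamBo89. Adamtsl5 had 35.6, 33.4, 39.7 and 39.7 CPM in MamBo38, 26.3 and 27.7 CPM in MamBo43 TRT, 2.58 CPM in untreated MamBo43, and 0.487, 1.84, 1.92 and 1.69 CPM in MamBo89, similar in both kinds of HER2-negative cells (4.29 ± 0.37, edgeR adjusted p = 8.60e-06). Adamtsl3 had 60.8, 37.7, 62.2 and 58.8 CPM in MamBo38, 52.2 and 30.9 CPM in MamBo43 TRT, 44.1 CPM in untreated MamBo43, and 50.3, 188, 223 and 187 CPM in MamBo89 (-1.47 ± 0.42, edgeR adjusted p = 0.0132). For Adamtsl3 only 3 MamBo89 libraries were high, since AG3 and untreated MamBo43 lay within the HER2-negative range. Adamtsl3 turned to 0.18 once the tumor of origin entered the fit. Adamtsl2, which binds a latent TGF-beta binding protein, had 0 counts in the 6 HER2-negative libraries, 2.39 CPM in untreated MamBo43, and 0.0974, 0.460, 0.0583 and 0.272 CPM in MamBo89. Untreated MamBo43 was at least 37.0-fold above MamBo43 TRT and at least 65.2-fold above MamBo38, and MamBo89 was at least 6.32-fold above MamBo38, each against 3 counts over the lower group. Adamtsl2 was called lower in MamBo38 than in MamBo89 (edgeR adjusted p = 0.0125).

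Among the neuronal ADAM genes, which act as ligands or receptors without enzyme activity, Adam11 had 0.24, 0.834, 0.418 and 0.342 CPM in MamBo38, 0 and 0.0384 CPM in MamBo43 TRT, 0.665 CPM in untreated MamBo43, and 2.24, 9.25, 8.21 and 7.4 CPM in MamBo89 (-4.16 ± 0.92, edgeR adjusted p = 0.00301). It was low in both lines of tumor B whatever their HER2 status and at its highest in MamBo89. Its ratio in untreated MamBo43 over MamBo43 TRT was 30.9 (95% counting interval 4.84 to 1292, 17 counts against 1). Adam22, a receptor of the neuronal protein LGI1, was at 0.0583 to 0.921 CPM and was not called in any comparison. Of the ADAM genes of the reproductive tract, only Adam1a, a sperm protein gene, was expressed, at 1.39 to 7.84 CPM in HER2-negative and 1.27 to 10.3 CPM in HER2-positive libraries (-0.43 ± 0.54, edgeR adjusted p = 0.526). Its level is uncertain, since other genes hold 77.0% of its 75-base windows. Adam4 had 0.048, 0.0556, 0.119 and 0.114 CPM in MamBo38, 0.294 and 0.23 CPM in MamBo43 TRT, 0.587 CPM in untreated MamBo43, and 0.438, 0.322, 0.524 and 0.653 CPM in MamBo89, and Adam21 had 0.192, 0.222, 0.119 and 0.0759 CPM in MamBo38, 0.294 and 0.268 CPM in MamBo43 TRT, 0.0783 CPM in untreated MamBo43, and 0.0974, 0.322, 0.466 and 0.816 CPM in MamBo89. Adam30 had 0.144, 0, 0.179 and 0.0759 CPM in MamBo38, 0.098 and 0.192 CPM in MamBo43 TRT, 0.117 CPM in untreated MamBo43, and 0, 0.553, 0.641 and 0.816 CPM in MamBo89. These were all under 1 CPM, and each was called lower in MamBo38 than in MamBo89, with log2 fold changes of -2.43 for Adam4, -1.46 for Adam21 and -2.28 for Adam30 (edgeR adjusted p = 0.00152, 0.0714 and 0.0606). Other genes hold 10.7% of the windows of Adam4.

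HER2-negative cells arose by different routes, in vivo for MamBo38 and in culture for MamBo43 TRT, and each was set against HER2-positive cells that the other contrast does not use. Between MamBo38 and MamBo89 (4 libraries each), 28 of 32 members were called, 12 higher and 16 lower, against 41.9% of the 13782 genes tested (19.9% higher, 22.0% lower). The median log2 fold change was -1.07 for the members, also with the 4 members at 0 counts in MamBo38 set to their bound, and -0.07 for all genes. Within MamBo43, TRT libraries (n = 2) against the untreated one (n = 1), 16 of 32 were called, 9 higher and 7 lower, against 29.1% of all genes (13.6% higher, 15.5% lower), with medians of 0.48 and 0. The spread of the lone untreated library is not known and was taken from the other states. Both contrasts come from 1 fit and share its estimate of the spread.

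Of the 16 members called within MamBo43, all were also called between the lines, as were 2805 of the 4008 genes called within MamBo43. Of these 16 members, 14 had the same direction (87.5%), as had 2600 of those 2805 genes (92.7%). Of the 6 hyalectanases, 2 were higher and 4 lower between the lines, and 2 were higher and 2 lower within MamBo43. Of the 3 procollagen N-proteinases, 2 were higher and 1 was lower in each contrast. The 8 higher in both were Adam19, Adamts1, Adamts2, Adamts5, Adamts6, Adamts14, Adamtsl4 and Adamtsl5. Their log2 fold changes ran from 1.86 (Adamts1) to 8.64 (Adam19) between the lines and from 1.67 (Adamtsl4) to 5.93 (Adamts5) within MamBo43. The 6 lower in both were Adam11, Adamts3, Adamts8, Adamts9, Adamts10 and Adamtsl2. Adamts9 fell by 2.24 between the lines and by 2.31 within MamBo43 on the log2 scale, and Adamts10 fell by 3.25 and by 4.52. Adam12 and Adamts7 went opposite ways. Adamts7 was higher in MamBo38 than in MamBo89 (1.18 ± 0.38, edgeR adjusted p = 0.0187) and lower in MamBo43 TRT than in untreated MamBo43 (-1.93 ± 0.65, edgeR adjusted p = 0.0447). Another 3 members were called higher between the lines only, with log2 fold changes within MamBo43 of 0.84 for Adam15, 1.18 for Adam8 and 1.0 for Adamts12. A further 9 were called lower between the lines only, among them Adamts4 (-2.49 between the lines and 0.64 within MamBo43), Adamts15 (-2.40 and 0.15) and Adamtsl3 (-1.57 and -0.09). Whether these effects differ between the contrasts was not tested.

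**Figure D4:**
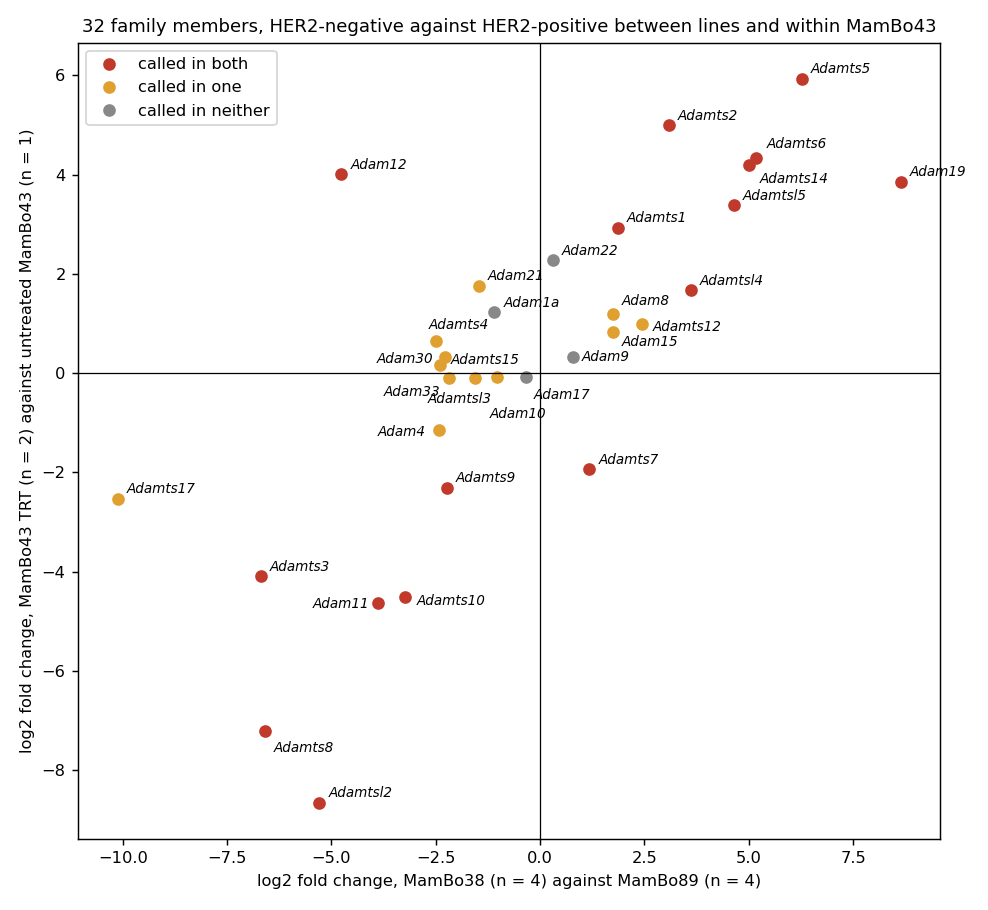
Log2 fold change between MamBo38 and MamBo89 (horizontal axis, 4 libraries each) against that between MamBo43 TRT and untreated MamBo43 (vertical axis, 2 libraries against 1) for 32 members, coloured by the number of contrasts in which each was called. Adam12 (-4.76 and 4.01) and Adamts7 (1.18 and -1.93) are the 2 members called in both contrasts with opposite signs, and fitted values of Adamts3, Adamts8, Adamts17 and Adamtsl2 depend on the prior count, since MamBo38 had 0 counts.

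Both kinds of HER2-negative cells were then compared directly, MamBo43 TRT (n = 2) against MamBo38 (n = 4), which share libraries with the contrasts above. Here 11 of 32 members were called, 4 higher and 7 lower in MamBo43 TRT, against 20.4% of all genes (10.2% in each direction). The median log2 fold change was -0.20 for the 30 members over 3 counts in either state, with 2 of them at their bound, and 0.01 for all genes. Adam12 stood out, at 58.3 ± 4.99 CPM (SD, n = 2) in MamBo43 TRT and 0.0493 ± 0.0462 CPM (SD, n = 4) in MamBo38. Adam4, Adamts3 and Adamts17 were the other 3 called higher, all at less than 0.4 CPM, and for Adamts17 this rests on 5 counts. Lower in MamBo43 TRT were Adamtsl4 (-2.95 ± 0.18, edgeR adjusted p = 6.69e-06), Adamts7 (-3.36 ± 0.56, edgeR adjusted p = 0.00175) and Adam19 (-1.79 ± 0.36, edgeR adjusted p = 0.00498). The others were Adam8 (-1.89), Adamts12 (-1.41), Adamts14 (-1.01) and Adam11 (-4.07). None of the 6 hyalectanases was called. Adamts9 (-0.999 ± 0.29, edgeR adjusted p = 0.0277) and Adamts1 (-0.91 ± 0.21, edgeR adjusted p = 0.00901) passed the adjusted p but stayed under the minimum fold. Adamts5 was at -0.19 (standard error 0.48). Without the MamBo43 TRT library of 30 days with and 30 days without trastuzumab, 7 members were called, against 14.4% of 13690 genes.

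Untreated MamBo43 (n = 1) was compared with the 2 untreated MamBo89 libraries, which asks how labile and stable HER2-positive cells differ. The spread in this fit comes from these 2 MamBo89 libraries alone, AG3 among them, and that of untreated MamBo43 is not known. The p-values therefore do not measure how MamBo43 cultures vary. Of 29 members tested, 3 were called, against 7.40% of 12867 genes (4.87% higher, 2.53% lower). Adamts4 (-3.71 ± 0.57, edgeR adjusted p = 4.45e-04) and Adamts1 (-1.92 ± 0.49, edgeR adjusted p = 0.0280) were lower in MamBo43 and Adamts10 was higher (1.78 ± 0.52, edgeR adjusted p = 0.0577). The median log2 fold change was -0.54 for the members and -0.06 for all genes. Against all 4 MamBo89 libraries in the fit of 4 states, 13 of 32 members were called, 6 higher and 7 lower, against 18.9% of 13782 genes (11% higher, 7.86% lower).

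Trastuzumab was compared with no treatment within the lines that keep their HER2 status. In MamBo89 (2 against 2 libraries) edgeR called 0 of 26 members, with 0 at an unadjusted p under 0.05, and 0 of all 12046 genes, with 186 passing an unadjusted p of 0.05. In MamBo38 it called 0 of 21 members and 0 of 11861 genes, 503 genes passing an unadjusted p of 0.05, 2 of them members, namely Adam8 (log2 fold change -0.84) and Adamts10 (-1.36). The test of a different effect in both lines called 0 of 29 members, with none at an unadjusted p under 0.05, and 0 of 12983 genes, 218 of which passed that p. DESeq2 called no member in any of the 3 comparisons. The comparisons depend on single untreated libraries. Without the second untreated MamBo89 library, so that treated cells stood against AG3 alone, 9 of 29 members were called in MamBo89, against 18.4% of 12485 genes, and 4 of 31 in the test of a different effect, against 6.18% of 13370 genes. Adamtsl3 at 50.3 CPM in AG3 and at 187 to 223 CPM in the other 3 libraries of the line shows this gap. Without the first untreated MamBo38 library, which shares its code with the treated ones, 3 of 23 members were called in MamBo38, against 8.73% of 12105 genes, and code and treatment then cannot be told apart.

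Genes that work with the family were examined in lists set up by function. Of 5 inhibitors tested by HER2 status, 2 were higher (15.8% of all genes), 2 were lower (17.0%) and 1 was not called. Timp1, an inhibitor of many metalloproteinases, had 54.2, 53.6, 54.7 and 54.1 CPM in MamBo38, 14.6 and 29.3 CPM in MamBo43 TRT, 0.587 CPM in untreated MamBo43, and 16.4, 0.829, 1.11 and 1.14 CPM in MamBo89 (3.44 ± 0.93, edgeR adjusted p = 0.00931). Timp1 was low in all HER2-positive libraries but AG3. Timp2 had 1330.1, 1191, 1369 and 1599.7 CPM in MamBo38, 1072 and 1174 CPM in MamBo43 TRT, 413 CPM in untreated MamBo43, and 56.4, 126, 123 and 98.8 CPM in MamBo89 (2.97 ± 0.46, edgeR adjusted p = 3.13e-04). It was high in both HER2-negative states and intermediate in untreated MamBo43. Timp3, the strongest inhibitor of ADAM17 and of aggrecanases among the Timp genes, had 1518, 2203, 1500.1 and 1647 CPM in MamBo38, 12448 and 8219.9 CPM in MamBo43 TRT, 4237 CPM in untreated MamBo43, and 235, 273, 200.5 and 110.1 CPM in MamBo89. It was not called by HER2 status (2.18 ± 1.08, edgeR adjusted p = 0.112), and untreated MamBo43 lay above MamBo38. Timp3 was called higher in MamBo38 than in MamBo89 (3.07 ± 0.29, edgeR adjusted p = 7.22e-06) and in MamBo43 TRT than in MamBo38 (2.59 ± 0.32, edgeR adjusted p = 3.08e-04). Timp4 had 0 counts in the 6 HER2-negative libraries, 0.822 CPM in untreated MamBo43 and at most 0.272 CPM in MamBo89. All 6 inhibitors were called in the contrasts of MamBo38 with MamBo89 and of MamBo43 TRT with untreated MamBo43, 3 higher and 3 lower in each. Of all genes, 41.9% were called in the former contrast and 29.1% in the latter. Reck, a membrane-anchored inhibitor, had 6.53, 5.01, 6.02 and 6.19 CPM in MamBo38, 33.1 and 26.5 CPM in MamBo43 TRT, 81.7 CPM in untreated MamBo43, and 22.9, 28, 28.3 and 29.4 CPM in MamBo89 (-1.46 ± 0.59, edgeR adjusted p = 0.0577), with the lowest values in MamBo38. Papilin (Papln), an ADAMTS-related matrix protein, was lower in HER2-negative libraries (-5.97 ± 1.02, edgeR adjusted p = 6.09e-04).

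**Figure D5:**
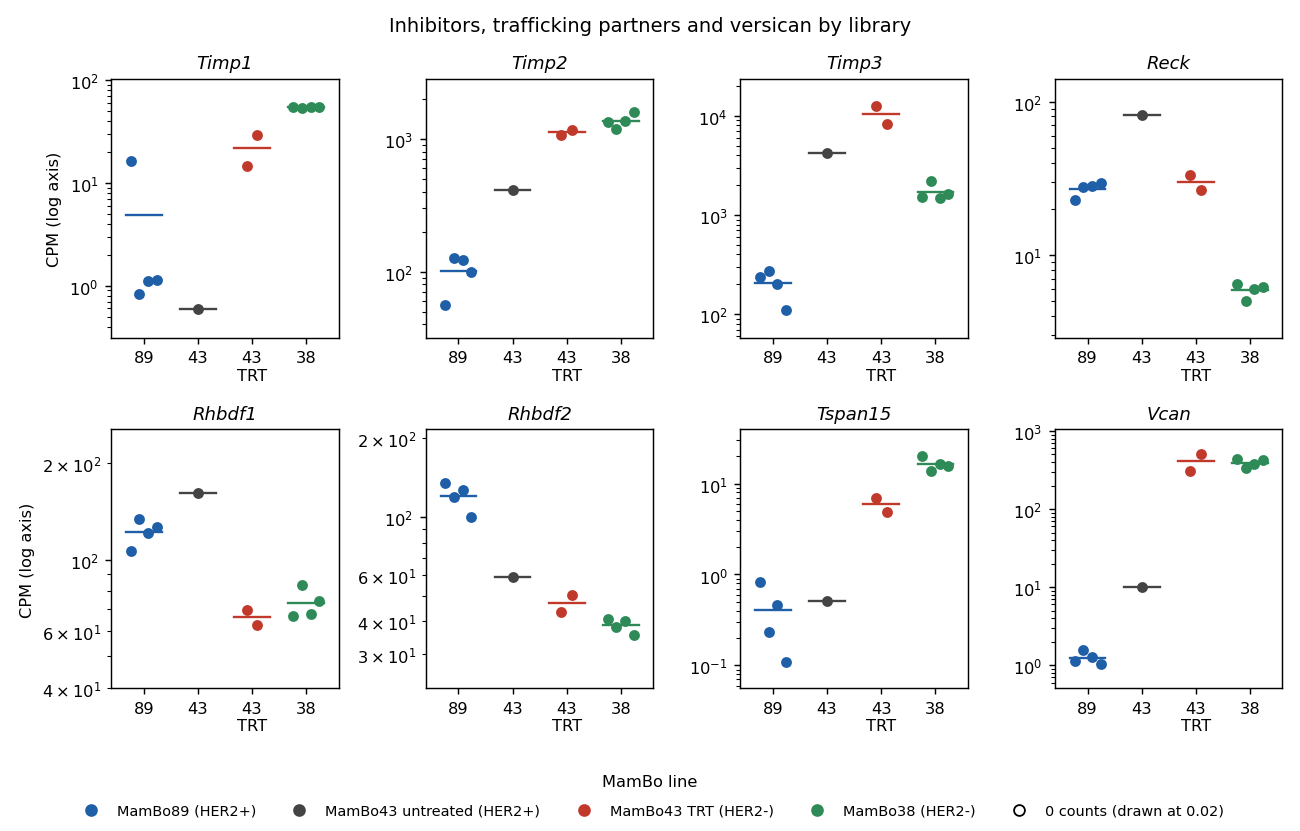
CPM on a log axis (vertical) of 4 inhibitors, 3 trafficking partners and versican in each library, by line (horizontal), with a horizontal bar at the mean of each state. Timp1, Timp2, Tspan15 and Vcan are higher in MamBo43 TRT and MamBo38 than in most or all HER2-positive libraries, Rhbdf2 is highest in MamBo89, and Timp3 is highest in MamBo43 TRT.

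Of 8 genes for the trafficking of ADAM17 and ADAM10, 1 was higher (15.8% of all genes), 4 were lower (17.0%) and 3 were not called. The iRhom gene Rhbdf2, which carries ADAM17 to the cell surface, had 40.7, 38, 40.2 and 35.6 CPM in MamBo38, 43.6 and 50.7 CPM in MamBo43 TRT, 58.9 CPM in untreated MamBo43, and 135, 119.8, 127 and 99.9 CPM in MamBo89 (-1.39 ± 0.19, edgeR adjusted p = 1.52e-04). Its relative Rhbdf1 had 67, 83.5, 67.8 and 74.2 CPM in MamBo38, 69.6 and 62.6 CPM in MamBo43 TRT, 162 CPM in untreated MamBo43, and 106, 133, 121 and 126 CPM in MamBo89, a difference under the minimum fold (-0.88 ± 0.12, edgeR adjusted p = 1.51e-04). Frmd8, which stabilises the complex of iRhom and ADAM17, was lower (-1.32 ± 0.23, edgeR adjusted p = 6.22e-04). Tspan15, a tetraspanin that directs ADAM10 towards certain substrates, was higher (4.89 ± 0.57, edgeR adjusted p = 5.11e-05) and had 20.2, 13.7, 16.3 and 15.8 CPM in MamBo38, 6.96 and 4.91 CPM in MamBo43 TRT, 0.509 CPM in untreated MamBo43, and 0.828, 0.23, 0.466 and 0.109 CPM in MamBo89. Of 4 convertases, which remove the inhibitory propeptide of these enzymes, 2 were lower (17.0% of all genes) and 2 were not called. Pcsk5 (-7.23 ± 1.11, edgeR adjusted p = 2.90e-04) and Pcsk7 (-1.07 ± 0.23, edgeR adjusted p = 0.00226) were lower, and Furin was not called (-0.32 ± 0.21, edgeR adjusted p = 0.235). Pcsk6, likewise not called, had 0 CPM in MamBo38, 76.1 and 21.0 CPM in MamBo43 TRT, 122 CPM in untreated MamBo43, and 171, 114, 120 and 111 CPM in MamBo89. Of the 2 enzymes that glycosylate thrombospondin repeats, 1 was higher (15.8% of all genes), namely B3glct (1.31 ± 0.28, edgeR adjusted p = 0.00228).

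Substrates of both branches were also measured. Of 9 ErbB ligands that ADAM enzymes release, 2 were higher (15.8% of all genes), 4 were lower (17.0%) and 3 were not called in HER2-negative libraries. Those called with the smallest adjusted p were Ereg (7.80 ± 1.13, edgeR adjusted p = 2.01e-04) and Nrg1 (2.62 ± 0.50, edgeR adjusted p = 0.00121), both higher, and Hbegf (-1.82 ± 0.37, edgeR adjusted p = 0.00178), which was lower. Of 24 other shed membrane proteins, 4 were higher (15.8% of all genes) and 10 were lower (17.0%). The list was led by Notch1 (-2.51 ± 0.14, edgeR adjusted p = 8.64e-07), Notch3 (-3.42 ± 0.26, edgeR adjusted p = 4.42e-06) and the syndecan gene Sdc4 (-1.81 ± 0.18, edgeR adjusted p = 1.70e-05). The proteoglycan gene Vcan, a hyalectan cut by several ADAMTS enzymes, had 432, 332, 383 and 428 CPM in MamBo38, 305 and 512 CPM in MamBo43 TRT, 9.9 CPM in untreated MamBo43, and 1.12, 1.57, 1.28 and 1.03 CPM in MamBo89 (7.04 ± 0.74, edgeR adjusted p = 2.77e-05), and of the other 3 hyalectans Acan was tested and not called (-0.70 ± 1.75, edgeR adjusted p = 0.758). All 7 fibrillar procollagen genes were called (32.8% of all genes), 5 higher (15.8%) and 2 lower (17.0%). The smallest adjusted p values were those of Col2a1 (-4.40 ± 0.97, edgeR adjusted p = 0.00292), Col1a1 (4.22 ± 0.99, edgeR adjusted p = 0.00432) and Col5a1 (2.40 ± 0.56, edgeR adjusted p = 0.00438). Of 14 other matrix and microfibril genes, 6 were higher (15.8% of all genes) and none was lower (17.0%). Those higher were led by Thbs2 (9.33 ± 1.16, edgeR adjusted p = 7.25e-05), Fbn1 (4.61 ± 0.61, edgeR adjusted p = 1.17e-04) and Fn1 (4.96 ± 0.68, edgeR adjusted p = 1.43e-04). The median log2 fold change was 4.22 for the procollagens, -1.42 for the ErbB ligands and -0.98 for the trafficking genes. The summed mesenchymal markers, which include Col1a1 and Col1a2, moved with these matrix genes, and their part was not tested.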

How the data were processed

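RNA for 11 MamBo libraries was prepared with a TruSeq v2 kit, which keeps no strand, and read over 75 nucleotides in single-end mode. According to the methods and the submitters' processing notes, the authors used bcl2fastq, STAR 2.5 and RSEM 1.3.0 with mm10, and deposited expected counts per gene, given as whole numbers and not normalized. The annotation they used is not given in the sources used here. Libraries were assigned to lines and treatments from their labels, and to HER2 status and tumor from the methods. Where nothing says that cultures of a group were separate, p-values measure only the spread between these libraries.

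From the counts, genes were filtered with filterByExpr (minimum count 10, minimum total 15), scaled by TMM and tested with the quasi-likelihood test of edgeR 4.0.16 in R 4.3.3, with Benjamini-Hochberg adjustment over all genes tested and a prior count of 0.125. The thresholds for a call were those of the study, 0.1 for the adjusted p and 1 for the size of the log2 fold change. HER2 status was fitted on 2 groups, the contrasts between states on all 11 libraries, and the other comparisons on their own libraries. The standard error is the absolute log2 fold change over the square root of F. A fold against a group at 0 counts was computed against 3 counts over that group and is a lower bound, and with 1 count the ratio is given with its exact 95% counting interval. Both cover counting error alone, as molecules were not tagged. DESeq2 1.42.0, other filters, scalings, thresholds, covariates and subsets of libraries, and leaving out each library were run as alternatives. Fits were tested on simulated data.

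Coordinates and exon lengths are those of GENCODE M21 on GRCm38, and promoter windows those of RefSeq on GRCm38.p6. All 58 members had an exon length. The members were taken by symbol, and the members, roles and partner lists were chosen with earlier results of these data known. Every expressed member is named. Values in all libraries with a test are given for the 12 called members with the largest change by HER2 status, for Adam10 and Adam17, and for members called in another comparison. Of the partner lists, the Timp genes, Reck, the iRhom genes, Vcan and at most 3 called genes of each other list are named. Papln, Furin, Pcsk6 and Acan were added after their values were seen.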

Additional observations from a re-analysis of the deposited data

Results flagged for a closer look

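In each of the 24 expressed members, the highest and the lowest library of the HER2-negative and of the HER2-positive group were tested with Dixon's criterion, 48 groups in all. In these, 4 libraries lay far from the rest of their group, and each was of MamBo43. The criterion flags about 1 group in 20 by chance when a group is a single normal population. The groups here hold libraries of different states, so that this rate does not apply to them. Adamts10 was at 50.5 CPM in untreated MamBo43 and at 13.1 to 15.7 CPM in the other 4 HER2-positive libraries. Adamts2 was at 111.5 CPM in MamBo43 TRT after 60 days of trastuzumab and at 36.5 to 58.9 CPM in the other 5 HER2-negative libraries. Adam9 was at 192.2 CPM in MamBo43 TRT on the interrupted schedule and at 258 to 291 CPM in the others. Adamts17 was at 0.192 CPM in MamBo43 TRT after 60 days, that is 5 counts, and at 0 in the other 5 HER2-negative libraries.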

How the results depend on the processing

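With 6 against 5 libraries, between 18 and 19 members were called over the fits that lacked 1 library each, and no expressed member changed its direction or its call in any of those 264 fits of a member. The counts called by HER2 status were 19 with DESeq2, 18 with RLE size factors, 25 without a filter (31.3% of all genes) and 14 with at least 10 counts in every library (25.3%). The library code as a covariate gave 19, the 8 libraries of the commoner code 20, and the tumor of origin, as a covariate or with tumor B alone, 12 (26.5% and 24.9% of all genes). Under the latter pair Adamts4 was at 1.25 and 1.22, Adam17 at 0.14 and 0.11, Adamtsl3 at 0.18 and 0.15, and Adam1a at 0.55 and 0.53, opposite to their sign over all libraries. Adamts7 was at -0.23 with the code as a covariate and at -0.21 in the libraries of the commoner code.

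A minimum of 10 counts in every library, which leaves 19 members to test, gave 16 calls between MamBo38 and MamBo89 (29.5% of all genes), 9 within MamBo43 (23.9%) and 6 between MamBo43 TRT and MamBo38 (12.8%). For untreated MamBo43 against MamBo89, 6 were called without a filter (7.96% of all genes) and 13 against all 4 MamBo89 libraries. Leaving out each library gave 24 to 29 calls between MamBo38 and MamBo89, 15 to 18 within MamBo43, 7 to 11 between MamBo43 TRT and MamBo38, 0 to 9 for trastuzumab in MamBo89, 0 to 3 in MamBo38 and 0 to 4 for the difference of both effects. Where leaving out a library left 1 in a group, it was assumed to vary like the other groups. Other alternatives moved no count of calls by more than 1.5 times. No paired analysis was possible because replicate numbers in the labels tie no library of one group to one of another. For untreated MamBo43 against untreated MamBo89, leaving out a MamBo89 library leaves 1 against 1, with no test. The single untreated MamBo43 library limits these comparisons, and depth limits those of members under 1 CPM.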
